A study of Mus musculus with 4 samples.

Results

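Pnpla3 and 9 other genes of fatty acid synthesis and of lipid droplet turnover were examined in muscle stem cells sorted from mice, the resident precursors of skeletal muscle. The 10 genes are Pnpla3 and Pnpla2, which encode lipid droplet lipases, the regulators Srebf1 and Nr1h2, and the enzyme genes Acly, Acaca, Fasn, Elovl6, Scd1 and Scd2. They were taken by symbol from a table of 11603 genes, and each had 1 row there. Pnpla3 was chosen because it was several-fold higher in the knockout libraries of these data, so its difference and those of the other 9 are given as a description and not as a test. The study sequenced RNA from 2 libraries of a conditional knockout of Hairless (Hr, a nuclear corepressor), called cKO, and from 2 libraries labelled Control. All came from hindlimb muscle of male C57BL/6 mice of 4 to 5 months, and cells were sorted as VCAM1+ and as CD31-, CD45- and Sca1-. The labels name neither the Cre driver nor the genotype of the controls, nor whether replicate libraries stem from different animals. The p-values given therefore weigh group differences against the spread between libraries, which may be technical.

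Cells make fatty acids from cytosolic citrate. ATP citrate lyase (Acly) splits citrate into acetyl-CoA, acetyl-CoA carboxylase (Acaca) makes malonyl-CoA, fatty acid synthase (Fasn) builds palmitate, Elovl6 lengthens it and the stearoyl-CoA desaturases (Scd1, Scd2) add a double bond. In liver and fat, the transcription factor SREBP-1c, a product of Srebf1, drives these genes and Pnpla3, and the oxysterol receptors LXR-alpha (Nr1h3) and LXR-beta (Nr1h2) drive Srebf1. Stored triglyceride is cut by adipose triglyceride lipase, the product of Pnpla2, and PNPLA3 is a related droplet protein known best from liver.

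The 250 bases before the first annotated base are shown for Pnpla3, which was chosen for its difference, for its relative Pnpla2, and for the enzyme gene Acly, whose values overlapped between the groups. The sequences are RefSeq's on GRCm38.p6, read 5′ to 3′ on the strand of the gene. Capitals mark CCAAT boxes (CCAAT, the NF-Y site) and GC boxes (GGGCGG, the Sp1 site), on either strand.
Pnpla3, chr15:84167566-84167815, plus strand: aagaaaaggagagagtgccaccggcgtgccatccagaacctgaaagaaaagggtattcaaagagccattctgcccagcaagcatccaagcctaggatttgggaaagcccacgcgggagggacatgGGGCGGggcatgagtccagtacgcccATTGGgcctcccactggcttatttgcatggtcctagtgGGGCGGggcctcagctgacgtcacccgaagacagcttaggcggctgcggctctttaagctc
Pnpla2, chr7:141454938-141455187, plus strand: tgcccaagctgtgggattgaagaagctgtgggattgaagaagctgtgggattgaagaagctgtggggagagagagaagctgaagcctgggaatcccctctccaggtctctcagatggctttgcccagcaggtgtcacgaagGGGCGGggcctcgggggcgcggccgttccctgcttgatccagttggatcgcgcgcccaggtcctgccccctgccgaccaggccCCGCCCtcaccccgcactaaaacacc
Acly, chr11:100528001-100528250, minus strand: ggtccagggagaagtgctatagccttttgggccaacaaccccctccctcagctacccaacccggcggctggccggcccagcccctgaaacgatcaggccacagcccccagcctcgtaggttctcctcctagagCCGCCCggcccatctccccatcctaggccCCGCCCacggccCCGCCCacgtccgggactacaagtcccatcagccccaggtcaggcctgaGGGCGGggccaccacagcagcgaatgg

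In the Pnpla3 window the CCAAT box lay 99 to 95 bases before the start, between GC boxes at 125 to 120 and at 61 to 56 bases. The 250 bases before the start were searched on both strands in 32851 RefSeq windows. Of these, 33.8% held a CCAAT box and 32.7% a GC box. RefSeq windows were matched for 8 of the 10 genes (10 windows in all), of which 3 held a CCAAT box and 4 a GC box. The sterol regulatory element TCACNCCAC, present in 1.05% of all windows, the E-box CACGTG, present in 6.02%, and the LXR element DR4, direct repeats of AGGTCA with 4 bases between them, present in 0.0152%, had no match in the windows of these 8 genes. A match describes letters only, and a window without one says nothing of the factor.

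Between 21757211 and 34101213 reads per library fell on the 11603 genes of the table, and values are RPKM, reads scaled to gene length and library size, with n = 2 per group. Hr itself had 7.15 and 7.90 RPKM in cKO and 9.28 and 8.94 RPKM in control, so reads of the gene remained in the libraries labelled cKO. RPKM summed over all exons do not show whether the transcript was intact. All 8 muscle stem cell markers had a row, with a summed level of 3910 and 4356 RPKM in cKO and 2933 and 2277 RPKM in control, and most of it was Sdc4, a surface proteoglycan, with 3031 and 3260 RPKM in cKO and 2121 and 1582 RPKM in control. The deposited table called Sdc4 higher and 1 other marker, the integrin gene Itga7, lower, with 61.9 and 49.998 RPKM in cKO and 90.8 and 118 RPKM in control. Pax7 had 9.03 and 13.1 RPKM in cKO and 8.23 and 12.9 RPKM in control. Of 9 adipocyte markers only the fatty acid binding protein gene Fabp4, which endothelial cells also express, had a row among the genes listed, with 39.1 and 76.9 RPKM in cKO and 47.3 and 51.4 RPKM in control. Control 2 stood apart by its myofibre markers, of which 6 of 7 had a row. Their summed level was 50.3 and 48.7 RPKM in cKO and 163 and 686 RPKM in control. The deposited table called 0 of these 6 higher in cKO and 6 lower, beside 3.59% and 4.26% of all genes. The actin gene Acta1, at 36.5 and 31.9 RPKM in cKO, made up most of the control 1 sum with 144 RPKM. It reached 455 RPKM in control 2. Ckm, Mylpf, Pvalb and Tnnt3 had 3.63, 4.48, 5.22 and 5.58 RPKM in control 1, beside 2.41 to 5.86 RPKM in cKO. In control 2 they had 39.4, 65.8, 54.4 and 70.1 RPKM. Their difference thus rested mainly on control 2, and their unadjusted limma p was 0.0779 to 0.125. For Tnnt3 the groups overlapped. Myh1 rose from 0.305 and 0.355 RPKM in cKO to 0.658 and 1.07 RPKM in control. Ly6a, which encodes the Sca1 epitope that the sort excluded, had 77.4 and 80.7 RPKM in cKO and 47.9 and 49.5 RPKM in control. It is 1 of the 5 measured of 6 markers of fibro-adipogenic progenitors, whose summed level was 660 and 393 RPKM in cKO and 560 and 545 RPKM in control, and of which the deposited table called 0 higher and 1 lower. That was Col3a1, a fibrillar collagen, with 204 and 96.1 RPKM in cKO and 294 and 323 RPKM in control. Blood cell markers, 5 of 7 with a row, summed to 11.97 and 18.4 RPKM in cKO and 16.5 and 16.3 RPKM in control. The part of these markers in the results was not tested. In bulk RNA, fewer cells of a type and less RNA per cell cannot be told apart.

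Pnpla3 (Entrez gene 116939, chromosome 15, 84167816 to 84189512, plus strand, mm10, 8 exons) had 1.08 and 1.13 RPKM in cKO and 0.177 and 0.248 RPKM in control. Both cKO libraries were high, both control libraries were low, and the spread within each group was small beside the gap. The gene was counted by 129 and 86 reads in cKO and by 19 and 24 reads in control. The exact 95% Poisson intervals, which cover counting error only, were 0.899 to 1.28 and 0.902 to 1.39 RPKM in cKO and 0.106 to 0.276 and 0.159 to 0.369 RPKM in control. The intervals of the cKO libraries did not overlap those of the control libraries. This lends no support, since the gene was chosen for its difference between these libraries. The means were 1.10 ± 0.0364 RPKM in cKO and 0.212 ± 0.0504 RPKM in control (SD, n = 2 each), a ratio of 5.20.

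The log2 fold changes given here are differences of group means of log2(RPKM + 0.5), ± their standard error, and the added 0.5 makes those of weakly expressed genes too small. For Pnpla3 it was 1.17 ± 0.13. It ranked at 63 from the highest of 11603 genes. In the limma-voom fit to recovered reads, where 0.5 is added to the reads and not to the RPKM, the log2 fold change was 2.38. The authors' deposited table gives Pnpla3 a q-value of 2.94e-09, and the limma adjusted p over all genes was 0.126. The gene was thus called in the deposited comparison and not by limma, and having been chosen from this contrast it supports neither. A processed transcript, Gm49513, shares 105 bases (2.26%) of its exons on the same strand.

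**Figure D1:**
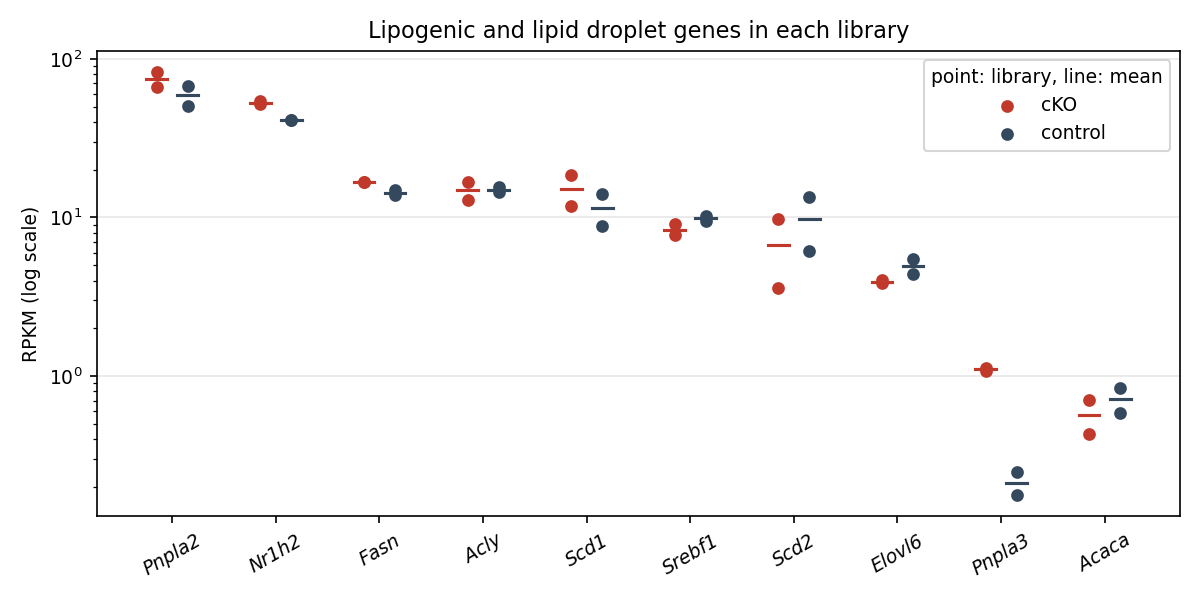
RPKM of the 10 genes in each library on a log axis, ordered by mean level, with cKO libraries in red left of control libraries in dark blue and a line at each group mean. Pnpla3 shows the widest gap, at 1.08 and 1.13 RPKM in cKO against 0.177 and 0.248 RPKM in control, while the groups overlap or lie close for the other 9 genes.

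Of the 10 genes, limma called 0 after adjustment over all genes, where the background was 0% higher and 0.00862% lower. At an unadjusted p under 0.05 limma counted 2 higher, Pnpla3 and Nr1h2, and 0 lower, against a background of 10.3% higher and 7.69% lower, and limma-voom called 0, against 0.0259% higher and 0.0689% lower. Pnpla3, 1 gene of the 10, had a q-value under 0.05 in the authors' deposited table, where 3.59% of all genes did so in the higher direction and 4.26% in the lower. Both cKO values lay above both control values for 3 genes and below them for 2, and the groups overlapped for 5. Over all genes 25% lay above and 26.2% below. Without control 2, 4 of the 10 lay above and 2 below, beside 35.1% and 36.2% of all genes. The median log2 fold change of the 10 was 0.09, beside -0.01 over all genes.

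Pnpla2 (chromosome 7, 141455198 to 141460743), the main triglyceride lipase of the droplet, was the most abundant of the 10, with 82.8 and 66.2 RPKM in cKO and 67.9 and 50.2 RPKM in control. The groups overlapped, and the log2 fold change was 0.34 ± 0.20. Per length, Pnpla2 stood 76.9 and 58.7 times above Pnpla3 within the cKO libraries and 385 and 202 times above it within the control libraries. Even at its cKO level Pnpla3 was thus a minor lipase transcript in these cells. The longest run shared by the transcripts of these genes was 14 bases in GENCODE vM21, so their reads can be told apart.

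Transcripts of genes whose products hold the Pnpla2 lipase in check or assist it were measured as well. Its inhibitor gene G0s2 had 22.01 and 22.4 RPKM in cKO and 13.2 and 15.7 RPKM in control, and its coactivator gene Abhd5 had 19.8 and 15.98 RPKM in cKO and 18.2 and 15.6 RPKM in control. G0s2 was apart, meaning that the groups did not overlap, while Abhd5 overlapped, and neither passed limma or the deposited q. Of 19 listed genes of droplet lipases, cofactors and coats, 13 had a row, limma called 0 in either direction, and the deposited table called 1 higher and 0 lower, against 3.59% and 4.26% overall. That gene was Abhd6, a monoacylglycerol hydrolase, with 5.55 and 6.63 RPKM in cKO and 3.38 and 3.33 RPKM in control and a deposited q of 0.00942. The most abundant members were Hilpda, an inhibitor of Pnpla2 induced by hypoxia, with 131 and 100.3 RPKM in cKO and 71.4 and 62.0 RPKM in control, and the droplet coat gene Plin3, with 38.1 and 43.4 RPKM in cKO and 35.02 and 46.4 RPKM in control. Hilpda was apart between the groups and Plin3 was not. Of the 13 genes, 3 lay apart above control and 1 below, beside 25% and 26.2% of all genes, and 9 overlapped. The gene below was Ddhd2, with 2.30 and 2.27 RPKM in cKO and 3.29 and 3.53 RPKM in control. The hormone-sensitive lipase gene Lipe stayed at 1.83 to 2.09 RPKM in all 4 libraries. The list had a median log2 fold change of 0.05.

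Of the other patatin-like genes, 3 of 5 had a row and 0 were called by limma or in the deposited table. Over all genes the deposited table called 3.59% higher and 4.26% lower, and limma 0% and 0.00862%. A count of 0 among 3 genes therefore carries no information. Pnpla8, a mitochondrial and peroxisomal phospholipase, had 34.7 and 26.3 RPKM in cKO and 35.6 and 26.1 RPKM in control. Pnpla7, a lysophospholipase, had 3.02 and 2.23 RPKM in cKO and 2.45 and 1.71 RPKM in control. Both overlapped between the groups. Pnpla6, a lysophospholipase named for its role in neuropathy, was apart, with 1.48 and 1.60 RPKM in cKO and 2.23 and 2.37 RPKM in control and a deposited q of 0.0795. The list median was -0.01.

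Srebf1 (chromosome 11, 60199089 to 60222581) had 9.04 and 7.71 RPKM in cKO and 10.2 and 9.56 RPKM in control. Both cKO values lay below both control values, by a log2 fold change of -0.23 ± 0.16, and of -0.46 under scaling to the sum of reads in the table. That scaling moved the median over all genes from -0.01 to -0.21. The Srebf1 transcript was thus not above control in the cKO libraries, where Pnpla3 was. Its part in the level of Pnpla3 was not tested. RPKM summed over all exons do not separate the SREBP-1a and SREBP-1c forms. Exons of Rai1 on the opposite strand share 109 bases (1.93%) with Srebf1, and whether counting used strand is not given in the sources used here.

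Other regulators of lipogenesis included 2 genes with low deposited q-values. All 15 listed genes had a row, limma called 0, and the deposited table called 2 higher and 0 lower, against the backgrounds of 3.59% and 4.26%. Thrsp, whose product (Spot 14) promotes lipogenesis in liver and mammary gland, had 8.95 and 11.6 RPKM in cKO and 3.41 and 4.05 RPKM in control, with a deposited q of 1.9e-05. Its log2 fold change was 1.34 ± 0.20, and limma gave an adjusted p of 0.133. Mlxipl, encoding the glucose-responsive factor ChREBP, had 6.20 and 9.32 RPKM in cKO and 3.64 and 4.46 RPKM in control, with a deposited q of 0.0174, while limma gave an adjusted p of 0.195. Both genes had both cKO values above both control values.

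The other regulators were not called in either test. Mid1ip1, the paralogue of Thrsp, had 39.9 and 37.8 RPKM in cKO and 29.6 and 28.7 RPKM in control, with a deposited q of 0.144. Insig2, which retains SREBP in the endoplasmic reticulum and was the most abundant member, had 145 and 136 RPKM in cKO and 141 and 95.1 RPKM in control. Srebf2, the driver of cholesterol synthesis, had 67.4 and 83.5 RPKM in cKO and 57.5 and 59.1 RPKM in control. Of the list, 5 genes lay apart above control and 6 below, beside 25% and 26.2% of all genes, and its median log2 fold change was 0.12. Scap, the escort of SREBP, was among those below, with 2.62 and 2.94 RPKM in cKO and 3.27 and 3.67 RPKM in control.

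Nr1h2 (chromosome 7, 44549616 to 44553951), encoding LXR-beta, had 52.3 and 53.9 RPKM in cKO and 41.0 and 41.3 RPKM in control. The groups were apart and each was tight, at 53.1 ± 1.19 RPKM in cKO and 41.1 ± 0.226 RPKM in control (SD, n = 2 each). The log2 fold change was 0.36 ± 0.13, and 0.13 under scaling to the sum of reads in the table, where the median over all genes was -0.21. Nr1h3, encoding LXR-alpha, had 4.03 and 5.23 RPKM in cKO and 2.02 and 2.15 RPKM in control, a log2 fold change of 0.98 ± 0.19. Limma gave it an adjusted p of 0.153, and its deposited q was 0.144. Nr1h2 exceeded Nr1h3 by 13.0 and 10.3 times in cKO and by 20.3 and 19.2 times in control. LXR-beta was thus the main LXR transcript in every library.

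Targets of LXR outside fatty acid synthesis did not share 1 direction. Of 13 listed partners and targets 12 had a row, limma called 0, and the deposited table called 0 higher and 1 lower, against 3.59% and 4.26% overall. That gene was Arl4c, a small GTPase, with 3.84 and 2.73 RPKM in cKO and 5.83 and 5.88 RPKM in control, a deposited q of 0.0037 and an adjusted p from limma of 0.189. The sterol exporter gene Abca1 had 3.97 and 1.90 RPKM in cKO and 4.84 and 2.72 RPKM in control, and the groups overlapped. Mylip, the ligase that degrades the LDL receptor, had 21.9 and 23.98 RPKM in cKO and 17.0 and 15.5 RPKM in control, and Lpcat3, a phospholipid acyltransferase, had 21.5 and 19.0 RPKM in cKO and 14.3 and 14.7 RPKM in control. Both were apart, and neither was called by limma or in the deposited table. The most abundant members were Apoe, with 1365 and 1684 RPKM in cKO and 1049 and 1246 RPKM in control, and the receptor partner Rxrb, with 25.2 and 23.98 RPKM in cKO and 20.4 and 23.3 RPKM in control. Of the 12 genes, 6 lay apart above control and 2 below, beside 25% and 26.2% of all genes. The list median was 0.19.

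**Figure D2:**
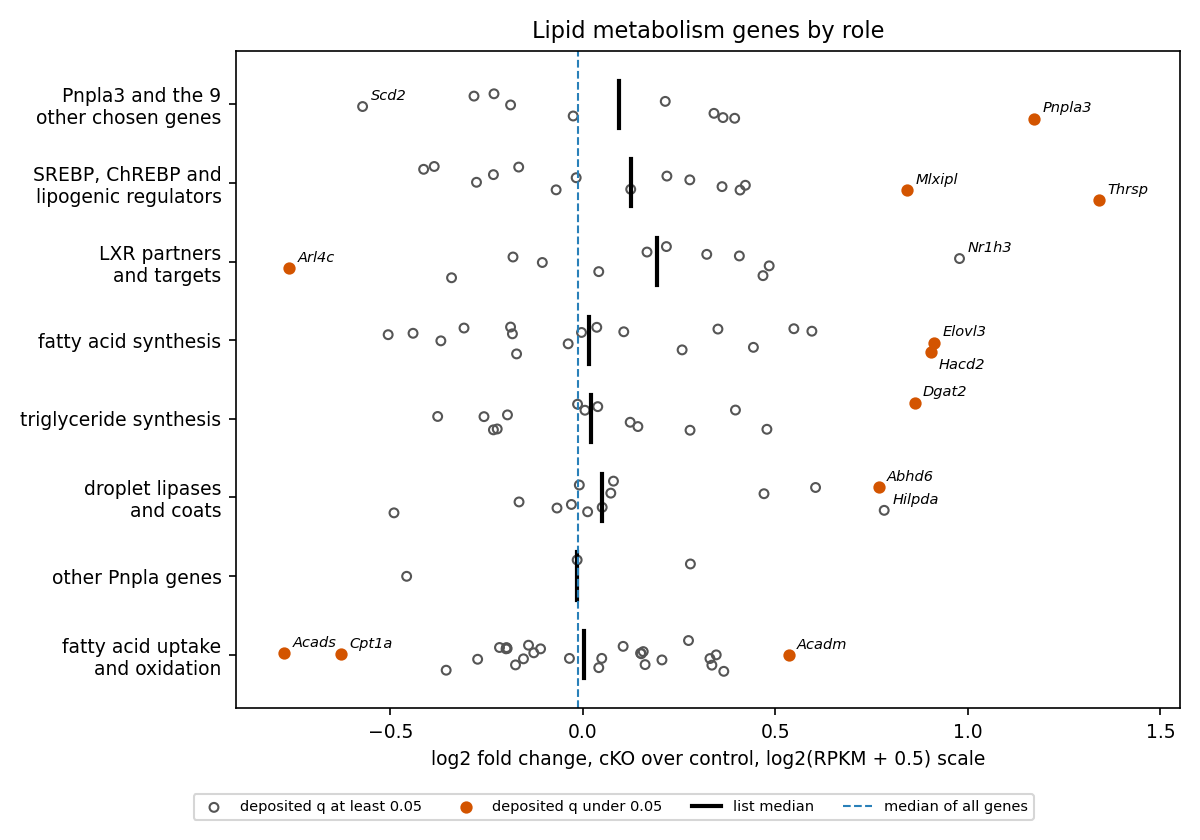
Log2 fold change of cKO over control on the log2(RPKM + 0.5) scale for Pnpla3 and the other 9 chosen genes and for the genes of 7 lists by role, with filled points for a deposited q under 0.05, a black line at each list median and a dashed line at the median of all genes. Pnpla3 at 1.17 and Thrsp at 1.34 lie far to the right, while the list medians run from -0.01 to 0.19.

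The enzymes of fatty acid synthesis were present at levels that differed little between the groups. Acly (chromosome 11, 100476353 to 100528000), the first step, had 16.8 and 12.9 RPKM in cKO and 14.5 and 15.5 RPKM in control, with the control values inside the range of the cKO values. Acaca (chromosome 11, 84129672 to 84401651), the committed step, had 0.429 and 0.710 RPKM in cKO and 0.583 and 0.845 RPKM in control, and the groups overlapped. Fasn (chromosome 11, 120805940 to 120824178) had 16.8 and 16.7 RPKM in cKO and 13.9 and 14.8 RPKM in control. It was apart between the groups by a log2 fold change of 0.21 ± 0.14, which became -0.02 under scaling to the sum of reads in the table. That scaling moved the median over all genes from -0.01 to -0.21. Elovl6 (chromosome 3, 129532355 to 129638495) had 4.01 and 3.87 RPKM in cKO and 4.42 and 5.43 RPKM in control, with both cKO values below control and a log2 fold change of -0.28 ± 0.18, which was -0.50 under the same scaling. Acaca was low per length in every library, at 189 and 199 reads in cKO and 231 and 301 reads in control.

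Of 22 further genes of synthesis, elongation and desaturation 18 had a row and limma called 0. The deposited table called 2 higher and 0 lower, where all genes gave 3.59% and 4.26%. Elovl3, an elongase of saturated chains, had 2.31 and 2.89 RPKM in cKO and 1.73 and 0.706 RPKM in control, with a deposited q of 0.0274 and an adjusted p from limma of 0.233. Hacd2, a dehydratase of the elongation cycle listed as Ptplb, had 33.7 and 24.1 RPKM in cKO and 19.4 and 11.6 RPKM in control, with a deposited q of 0.0249 and an adjusted p from limma of 0.217. The most abundant members were also of the elongation cycle. The reductase gene Tecr had 163 and 227 RPKM in cKO and 139 and 144 RPKM in control, and the elongase gene Elovl1 had 69.4 and 76.4 RPKM in cKO and 60.1 and 54.1 RPKM in control. The citrate carrier gene Slc25a1, which feeds Acly, had 17.2 and 26.2 RPKM in cKO and 12.4 and 16.6 RPKM in control. Of the 18 genes, 6 lay apart above control and 3 below, beside 25% and 26.2% of all genes, and 9 overlapped. Those below included other dehydratase genes of the cycle. Hacd3 (listed as Ptplad1) had 27.2 and 22.2 RPKM in cKO and 35.6 and 31.6 RPKM in control. Hacd1 (listed as Ptpla) had 25.5 and 18.9 RPKM in cKO and 29.4 and 27.5 RPKM in control. The list median was 0.02.

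Scd1 and Scd2 varied more between libraries of a group than between groups. Scd1 (chromosome 19, 44394451 to 44407709) had 11.8 and 18.5 RPKM in cKO and 8.81 and 14.1 RPKM in control. Scd2 (chromosome 19, 44293676 to 44306864) had 3.61 and 9.76 RPKM in cKO and 6.17 and 13.5 RPKM in control. In each group the library numbered 2 had the higher value of both genes, and the groups overlapped. The log2 fold changes were 0.39 ± 0.30 for Scd1 and -0.57 ± 0.53 for Scd2. Both values rested on which libraries were kept. That of Scd1 was 0.71 without cKO 1, 0.08 without cKO 2, 0.07 without control 1 and 0.72 without control 2. That of Scd2 was 0.09 without cKO 1, -1.23 without cKO 2, -1.10 without control 1 and -0.04 without control 2.

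Scd1 exceeded Scd2 by 3.27 and 1.90 times in cKO and by 1.43 and 1.05 times in control, a ratio looked at after the values were seen. It was not tested. Transcripts of Scd1 and Scd2 share a run of 147 bases in GENCODE vM21, so reads there cannot be assigned to 1 gene with certainty. Endothelial markers, of which 6 of 6 had a row, were likewise higher in the second library of each group. Their summed level was 33.4 and 61.8 RPKM in cKO and 54.3 and 76.4 RPKM in control, none of them was at 0, although the sort excluded CD31+ cells, and CD31's own gene Pecam1 had 5.51 and 9.66 RPKM in cKO and 8.04 and 11.9 RPKM in control. Their part in the Scd values was not tested.

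**Figure D3:**
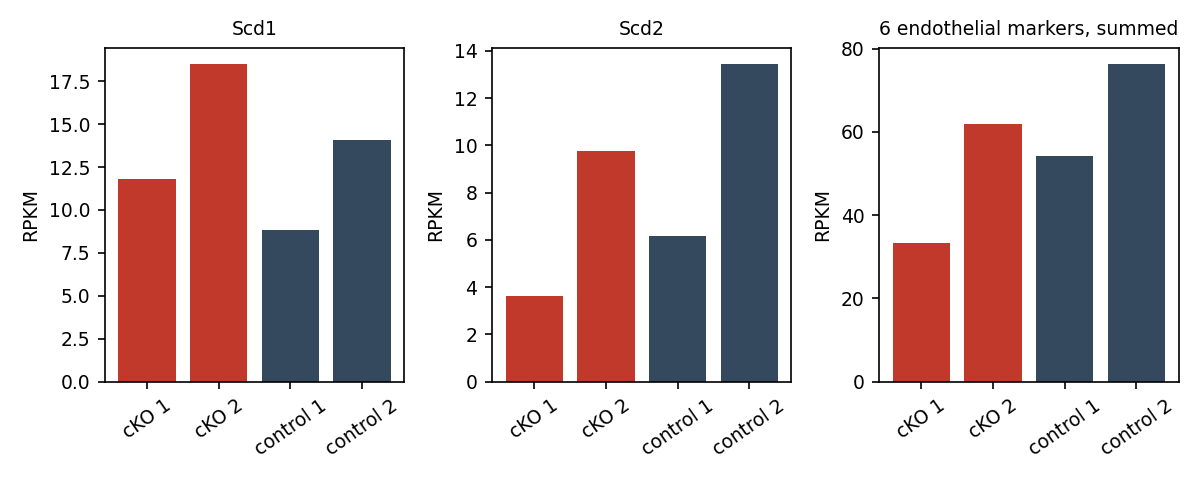
RPKM of Scd1, of Scd2 and of the sum of 6 endothelial markers as bars for cKO 1, cKO 2, control 1 and control 2, with a separate axis from 0 in each panel. In each group the second library is the higher one in all 3 panels, as in Scd2 with 3.61 and 9.76 RPKM in cKO and 6.17 and 13.5 RPKM in control.

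Of 16 listed genes of triglyceride synthesis 14 had a row, limma called 0, and the deposited table called 1 higher and 0 lower, beside 3.59% and 4.26% of all genes. Dgat2, a diacylglycerol acyltransferase that makes triglyceride from newly made fatty acids, had 27.6 and 18.8 RPKM in cKO and 14.0 and 10.8 RPKM in control, with a deposited q of 0.00297 and an adjusted p from limma of 0.190. The other acyltransferase of this step, Dgat1, had 16.4 and 17.4 RPKM in cKO and 13.9 and 13.7 RPKM in control. Both genes had both cKO values above both control values. The most abundant members, Gpat4 (listed as Agpat6), of the first acylation step, with 50.1 and 52.8 RPKM in cKO and 46.0 and 48.4 RPKM in control, and Agpat4, of the second, with 37.5 and 31.0 RPKM in cKO and 36.3 and 31.8 RPKM in control, were nearly level. The list median was 0.02.

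Genes of fatty acid uptake and oxidation, the opposite branch, went in both directions. Of 30 listed 28 had a row, limma called 0, and the deposited table called 1 higher and 2 lower, where 3.59% and 4.26% of all genes were. Acadm, the medium-chain acyl-CoA dehydrogenase, had 28.0 and 26.5 RPKM in cKO and 20.2 and 17.2 RPKM in control, with a deposited q of 0.0469. Acads, the short-chain enzyme, had 2.90 and 3.54 RPKM in cKO and 4.39 and 7.73 RPKM in control, with a deposited q of 0.0116, and control 2, the highest, was also the library with the highest myofibre markers, whose part in this was not tested. Cpt1a, which admits fatty acids to mitochondria, had 20.52 and 16.3 RPKM in cKO and 28.7 and 28.2 RPKM in control, with a deposited q of 0.03. The limma adjusted p was 0.194 for Acadm, 0.248 for Acads and 0.186 for Cpt1a. Etfa, an electron carrier, had 182 and 170 RPKM in cKO and 163 and 114 RPKM in control, and Pdk4, the kinase that shuts off pyruvate dehydrogenase, had 122 and 131 RPKM in cKO and 125 and 87.7 RPKM in control. The list median was 0.00 to 2 decimals.

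Over the 7 lists together, 103 of 120 genes had a row. The lists were chosen with earlier results of these data known, so the shares are a description and not a test. The deposited table called 7 of them higher (6.80%) and 3 lower (2.91%), beside 3.59% and 4.26% of all genes. Limma called 0 in either direction, with 17 higher (16.5%) and 8 lower (7.77%) at an unadjusted p under 0.05, beside 10.3% and 7.69% of all genes, and limma-voom called 0. With the replicate number as a block, limma called 11 of the 103 higher and 3 lower, where it called 591 and 413 of all 11603 genes. The groups were apart upwards for 31 genes (30.1%) and downwards for 22 (21.4%), beside 25% and 26.2% of all genes.

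Ordered by mean RPKM over the 4 libraries, the 10 genes ran from Pnpla2 at 66.8 and Nr1h2 at 47.1 through Fasn at 15.6, Acly at 14.9, Scd1 at 13.3, Srebf1 at 9.13, Scd2 at 8.25 and Elovl6 at 4.43 to Pnpla3 at 0.657 and Acaca at 0.642. Neighbours in this order overlapped in range except at the steps between Nr1h2 and Fasn and between Elovl6 and Pnpla3. In the cKO libraries alone Pnpla3 lay above Acaca, and in the control libraries alone it lay below Acaca.

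Within 200 kb of Pnpla3 the table held 4 other genes, all downstream. None of them was called higher in the deposited table, where 3.59% of all genes were. With so few genes, the lack of a call in the direction of Pnpla3 carries no information. Samm50, a mitochondrial outer membrane assembly factor that begins 2720 bases after Pnpla3 on the same strand, had 43.4 and 53.1 RPKM in cKO and 39.4 and 45.1 RPKM in control. Parvb, encoding an adaptor of integrin adhesions, had 0.263 and 0.372 RPKM in cKO and 0.283 and 0.282 RPKM in control. Both overlapped between the groups. Its relative Parvg had 1 and 1 reads in cKO and 2 and 4 reads in control, too few to compare. The gene 1810041L15Rik had 0.0355 and 0.0929 RPKM in cKO and 0.290 and 0.483 RPKM in control, from 6 and 10 reads in cKO and 44 and 66 reads in control, with a deposited q of 0.00114 in the authors' deposited table, in the opposite direction to Pnpla3.

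**Figure D4:**
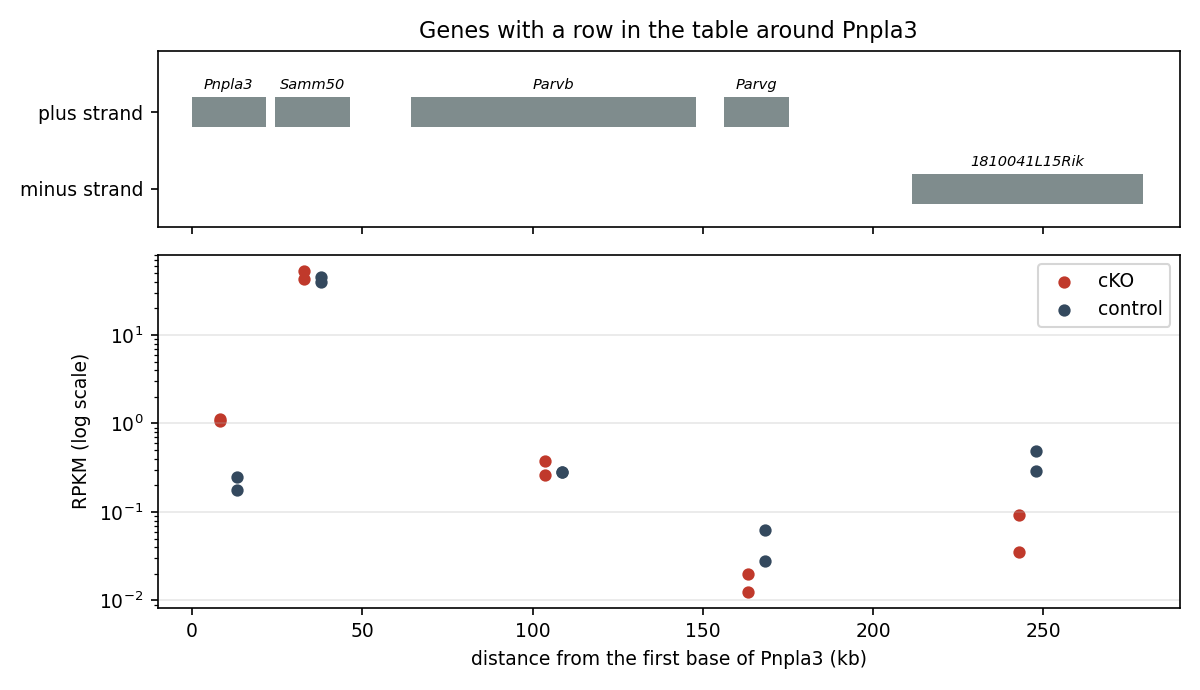
Upper panel, genes with a row within 200 kb of Pnpla3 by distance from its first base in kb, on the plus and minus strands, and lower panel, their RPKM in each library on a log axis at the middle of each gene, with cKO in red left of control in dark blue. Pnpla3 lies higher in cKO, Samm50 and Parvb overlap, and 1810041L15Rik lies lower in cKO at 0.0355 and 0.0929 RPKM against 0.290 and 0.483 RPKM in control.

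The 5 genes whose profile over the 4 libraries lay closest to that of Pnpla3, by Euclidean distance between centred log2(RPKM + 0.5) values among genes of at least 1 RPKM on average, were Tuba1c, Omd, Mx2, Tinf2 and AW112010. Tuba1c, an alpha tubulin, had 312 and 338 RPKM in cKO and 137 and 155 RPKM in control. Omd, a matrix proteoglycan, had 5.10 and 5.63 RPKM in cKO and 1.996 and 2.09 RPKM in control. The likeness holds on a scale that compresses the low values of Pnpla3, since the ratio of group means was 5.20 for Pnpla3 and 2.22 for Tuba1c. None of the 5 belongs to the lists of lipid genes. Those lists hold only 103 of the 11603 genes, so their absence among 5 genes carries no information.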

How the data were processed

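The members and the gene lists were chosen with earlier results of these data known. Per the labels' protocols, 10 ng of total RNA from sorted cells was reverse transcribed with a low-input template-switching kit. The authors used STAR, Trim Galore, edgeR and featureCounts (Subread) on mm10 (GRCm38), per the submitters' processing notes, which as used here hold no version or setting. The authors deposited 1 table of 11603 genes. Its 4 library columns have no unit in the header and behaved as RPKM made by the authors, since dividing by 1 constant per column, after multiplying by gene length, gave whole reads. All of the values up to 1000 reads (100% per library) came out whole within 0.01 reads. The authors divided by library sizes of 75.7% and 75.5% of the reads listed in cKO and 85.9% and 92.4% in control. The columns named Fl were taken as cKO because Ct names control. The deposited q-value per gene is the authors', from a model not given in the sources used here.

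Here limma 3.58.1 (R 4.3.3) with a mean-variance trend was fitted to log2(RPKM + 0.5) of every gene in the 4 libraries, with no covariate beside genotype, with Benjamini-Hochberg adjustment and a threshold of 0.05, and checked on simulated data. Genes were named by rule: Hr, the 10 members, genes within 200 kb of Pnpla3, the 5 most like it, and in each list (of the marker lists, sums and only some such genes are printed) up to 4 genes past limma or with a deposited q under 0.05 plus the 2 most abundant. Of the lists' entries, 138 were matched by symbol, 6 by Entrez ID through RefSeq, and 29 had no row. Pax7, Ly6a, G0s2, Abhd5, Lipe, Pnpla6, Mid1ip1, Scap, Nr1h3, Abca1, Mylip, Lpcat3, Slc25a1 and Dgat1 were added for their role after values were seen. Ckm, Myh1, Hacd1, Hacd3 and Ddhd2 were also added after values were seen, as genes lying lower in cKO. The planned edgeR and DESeq2 alternatives were not run on the reads recovered from the deposited RPKM, and limma-voom was the one count-based fit made. No other per-sample columns were in the table (0). Left-out libraries, pseudocounts, a filter, scalings, a replicate block and limma-voom were tried as alternatives. Promoter windows came from RefSeq (GRCm38.p6).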

Additional observations from a re-analysis of the deposited data

How the results depend on the processing

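Limma called 1 gene over the whole table (0 higher, 1 lower), 0 to 1 when any 1 library was left out, and 11 (3 higher, 8 lower) with limma-voom on recovered reads, which was chosen after seeing the data. No label says that libraries with the same number belong together. With the number as a replicate block the count was 1004 (591 higher, 413 lower), and Pnpla3 (adjusted p = 0.0140) was the 1 member called, with 11 list genes higher and 3 lower of 103. Deviations of cKO 1 and control 1 from their group means correlated at 0.39 over all genes, with only 2 pairs. The limma adjusted p of Pnpla3 was 0.0887 to 0.452 under the other alternatives, and the highest came without control 2. The log2 fold change of Pnpla3 was 1.95 with a pseudocount of 0.1, 0.80 with a pseudocount of 1, 1.05 scaled by the reads listed, 2.38 with limma-voom, and 1.10 to 1.24 when any 1 library was left out. A filter at a mean of 1 RPKM removed Pnpla3 and Acaca. The median over all genes was -0.21 when scaled by the reads listed, against -0.01 as deposited. Of 108 alternative values of the 10 genes 103 kept their sign. The 5 others were Fasn at -0.02 scaled by the reads listed, Scd2 at 0.09 and Acaca at 0.00 without cKO 1, and Acly at 0.16 without cKO 2 and 0.02 without control 2. Of 77 alternative list medians 60 kept their sign. The cause of these shifts was not tested. The planned edgeR, DESeq2 and TMM alternatives were not run, and limma-voom was the one fit to recovered reads. With 19 and 24 reads in control, depth limits the precision of Pnpla3.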
